A study of Mus musculus with 8 samples.

Results

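The genes described here are 9 that encode the enzymes of tyrosine and histidine breakdown: Tat, Hpd, Hgd, Gstz1 and Fah on the tyrosine side, and Hal, Uroc1, Amdhd1 and Ftcd on the histidine side. They were taken by symbol from the authors' deposited tables, which list 26682 loci each. All 9 had exactly 1 row, and all 9 were tested in each of the 3 tables, so no low-value filter removed any of them. The RNA came from livers of 8 mice on a C57Bl/6J background, 2 in each of 4 groups: WT vehicle, WT IUB288, KO vehicle and KO IUB288. IUB288 is an agonist of the receptor for glucagon, the fasting hormone. The KO carries a floxed Fxr gene. Fxr, listed as Nr1h4, makes a nuclear receptor that senses bile acids. The sources used here do not give the recombinase that removed it or the cells concerned, nor age, sex, dose or length of treatment. All mice had fasted for 2 h, and the labels mention both high-fat and chow diets without assigning them to mice, so diet and group cannot be told apart.

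Phenylalanine is cleared in the liver by hydroxylation to tyrosine, which is then degraded step by step. Tat, tyrosine aminotransferase, removes the amino group, Hpd makes homogentisate, Hgd opens its ring, Gstz1 isomerises the product and Fah splits it into fumarate and acetoacetate. Fumarate can feed glucose synthesis and acetoacetate is a ketone body. Histidine is turned by Hal, histidine ammonia-lyase, into urocanate, which Uroc1 and Amdhd1 convert to formiminoglutamate, and Ftcd passes its one-carbon unit to folate. Tat has long been known as a liver gene that glucocorticoids and cyclic AMP induce.

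Each value below is 1 pooled FPKM (fragments per kilobase of transcript, scaled to the mapped fragments of the library) for the 2 mice of a group, and no value per mouse was given. Values after ± are standard errors on the log2 scale, implied by the fold change and the test statistic of the authors' deposited tables. Among the members they ran from 0.444 to 0.586 in the table of WT mice and from 0.397 to 0.54 in that of KO mice. The deposited p-values are smaller than these errors give. Of the 27 values of the 9 members in the 3 tables, 22 had a p above its lowest listed value, and in all 22 the error implied by the p was smaller, the error from the statistic being 1.17 to 1.46 times as large. Intervals at 95% below use the error from the statistic, with those from the p named where given. Calls are those of the authors' deposited tables at a q-value under 0.05. Nr1h4, the targeted gene, went from 49.3 to 40.3 FPKM with IUB288 in WT and from 36.8 to 27.1 in KO in the authors' deposited tables. Set against WT under IUB288, the KO value was lower by a log2 fold change of -0.54 ± 0.41 in the authors' deposited table and was not called (q = 1.00), so the level over the whole locus does not separate the genotypes. Of 9 hepatocyte marker loci, 8 were above 100 FPKM in every group. Albumin (Alb), the exception, was listed at 0 in both vehicle columns, beside 9581 FPKM in WT IUB288 and 9284 in KO IUB288 in the treatment tables. It was the 1 locus of the 9 without a test in either treatment table. Its 0 is therefore not read as absent RNA, nor the higher value as a rise. Apoa1, an apolipoprotein gene of that list, fell with IUB288 by 1.79 ± 0.69 in WT (q = 0.0113) and by 1.39 ± 0.61 in KO (q = 0.0276) in the authors' deposited tables. It was the 1 marker called of the 8 tested, beside 3.4% of all tested loci called lower in WT and 2.37% in KO. The list as a whole did not fall, with a median log2 fold change of 0.48 in WT and 0.10 in KO.

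The same 4 genes were called higher with IUB288 in both genotypes, 3 of the tyrosine pathway (Tat, Hpd, Hgd) and 1 of the histidine pathway (Hal). Of all loci tested in both genotypes 2.22% were called higher in both, and 8.27% of those of at least 100 FPKM. The calls depend on the p-values used and on the scaling, as given below. Gstz1, Fah, Uroc1, Amdhd1 and Ftcd were not called in either. The first enzymes of both pathways, Tat and Hal, were thus among the genes called. The sequences before the start sites of the 4 genes, and of Fah from the end of the tyrosine pathway, are shown because the first 4 were called together and Fah was not. They are the 250 bases before 1 start per gene in a promoter table from RefSeq on build GRCm38.p6, written 5′ to 3′ on the strand of the gene, with matches to any of the motifs listed after them in capitals. The RefSeq gene records of Tat and Hgd begin 4358 and 411 bases further upstream, so these windows lie inside those records and next to the starts of the deposited loci, and sequence before the outermost RefSeq start is not shown. For Hpd, Hal and Fah the start used is the 5′ end of the gene record.

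Tat, chr8:109990186-109990435, plus strand: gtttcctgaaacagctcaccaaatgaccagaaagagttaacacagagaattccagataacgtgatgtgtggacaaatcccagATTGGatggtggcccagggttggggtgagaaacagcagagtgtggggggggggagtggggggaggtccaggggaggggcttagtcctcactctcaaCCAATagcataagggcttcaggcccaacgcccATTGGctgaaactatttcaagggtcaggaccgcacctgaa
Hpd, chr5:123182724-123182973, minus strand: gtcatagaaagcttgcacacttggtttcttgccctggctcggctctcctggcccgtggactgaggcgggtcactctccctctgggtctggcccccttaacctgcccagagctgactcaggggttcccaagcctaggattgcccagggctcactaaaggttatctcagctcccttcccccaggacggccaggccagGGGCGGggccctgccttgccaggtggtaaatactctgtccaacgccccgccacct
Hgd, chr16:37579903-37580152, plus strand: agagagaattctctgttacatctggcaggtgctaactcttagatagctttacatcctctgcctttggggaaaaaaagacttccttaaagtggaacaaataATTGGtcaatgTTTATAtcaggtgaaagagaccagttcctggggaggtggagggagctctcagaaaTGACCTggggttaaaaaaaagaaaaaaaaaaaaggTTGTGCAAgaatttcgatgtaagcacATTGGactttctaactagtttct
Hal, chr10:93488518-93488767, plus strand: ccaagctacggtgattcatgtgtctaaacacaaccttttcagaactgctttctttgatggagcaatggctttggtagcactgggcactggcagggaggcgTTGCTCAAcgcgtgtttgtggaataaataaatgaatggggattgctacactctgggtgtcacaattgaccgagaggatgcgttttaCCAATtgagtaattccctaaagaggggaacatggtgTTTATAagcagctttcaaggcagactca
Fah, chr7:84605943-84606192, minus strand: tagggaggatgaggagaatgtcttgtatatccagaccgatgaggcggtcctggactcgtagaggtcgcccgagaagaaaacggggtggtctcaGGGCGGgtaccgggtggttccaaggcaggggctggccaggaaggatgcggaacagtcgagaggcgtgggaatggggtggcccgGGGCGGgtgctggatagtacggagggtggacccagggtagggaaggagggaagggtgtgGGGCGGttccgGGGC

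All 9 genes had a RefSeq promoter window of 300 bases (250 before and 50 after the start), Gstz1 having a pair of them. The starts of Uroc1 and Amdhd1 lay 50 and 78 bases inside their gene records, and those of Gstz1 4 and 10442 bases inside. Both strands of each window were searched. The full cyclic AMP response element TGACGTCA, which occurs in 1.79% of all 32851 windows, was found in none of the 10 windows of these genes. Its shorter core TGACG, which lies within the full element and occurs in 20.8% of windows, was found before Ftcd and in 1 of the windows of Gstz1, and neither gene was called. The C/EBP palindrome TTGCGCAA (0.183% of windows), the HNF1 palindrome, the glucocorticoid receptor palindrome and the farnesoid X receptor inverted repeat (0.00913% of windows each) were in none of the 10 windows. At shares this low no match is likely in 10 windows of any genes, so these absences say nothing about the members. Sequence outside the windows was not searched. The remaining motifs were chosen after the windows had been seen. CCAAT (37.4% of windows) lay in those of Tat, Hgd, Hal, Uroc1 and Gstz1, with 3 matches before Tat at 168, 72 and 40 bases before the start. TATAAA (13.6%) lay 28 bases before the start of Hal, on the opposite strand, 29 before that of Ftcd, and further away before Hgd. GGGCGG (35.7%) lay before Hpd, Fah, Amdhd1 and both starts of Gstz1, with 5 matches in the window of Fah. TTNNGCAA (10.8%), a looser C/EBP pattern, lay in the windows of Hgd and Hal, and the nuclear receptor hexamer AGGTCA (16.3%), which is part of the inverted repeat, in those of Hgd and Uroc1. The GC content of the windows ran from 41.0% (Hgd) and 47.7% (Hal) to 64.3% (Fah), against a median of 52.7% over all windows. CpG pairs numbered 5, 7, 2 and 7 in the windows of the called Tat, Hpd, Hgd and Hal. They ranged from 0 (Uroc1) to 19 (Fah) in those of the uncalled genes, and the median over all windows was 7. A letter match is not a bound site.

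Hal and Amdhd1 are neighbours on chromosome 10 and are transcribed towards each other. Per the deposited tables, on mm10 and counted from 1, Hal spans 93488768 to 93521260 and Amdhd1 93523338 to 93540035, which leaves 2077 bases between the loci. The deposited Hal locus runs 4499 bases past the RefSeq end of the gene, and 6576 bases lie between the RefSeq ends. Ftcd lies on the same chromosome from 76575633 to 76590716. Tat was placed on chromosome 8 (109990436 to 109999804), Hgd on chromosome 16 (37580153 to 37632026), Fah on chromosome 7 (84585159 to 84605942) and Uroc1 on chromosome 6 (90333289 to 90364548). The deposited loci of Hpd (chromosome 5, 123142193 to 123197616) and Gstz1 (chromosome 12, 87106866 to 87200229) are wider than the RefSeq genes. They overlap 1 other RefSeq gene (Setd1b) and 5 others (Gm40496, Gm6566, Pomt2, Samd15 and Tmed8), and the locus of Hgd overlaps 1 (Gm46559). The sources used here do not say whether counting used strand, so reads of overlapping genes cannot be told apart from those of Hpd, Gstz1 and Hgd.

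The levels were compared on 1 scale, that of the table of the KO effect under IUB288, to which the vehicle groups were carried by the fold change of their own treatment table. FPKM is per length, so genes can be set side by side. Hpd was the highest of the 9 in every group, at 1693 FPKM in WT vehicle, 4042 in WT IUB288, 1296 in KO vehicle and 3090 in KO IUB288. The second place under vehicle belonged to Fah in both genotypes (551 FPKM in WT, 428 in KO). Under IUB288 it belonged to Tat in both genotypes (1200 FPKM in WT, 1198 in KO). The genes of the histidine pathway were lower than those of the tyrosine pathway within every group. Hal was the lowest of the 9 in both vehicle groups, at 100 FPKM in WT and 38.9 in KO. Amdhd1 was the lowest in WT IUB288 (162 FPKM) and Hal again in KO IUB288 (107).

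**Figure D1:**
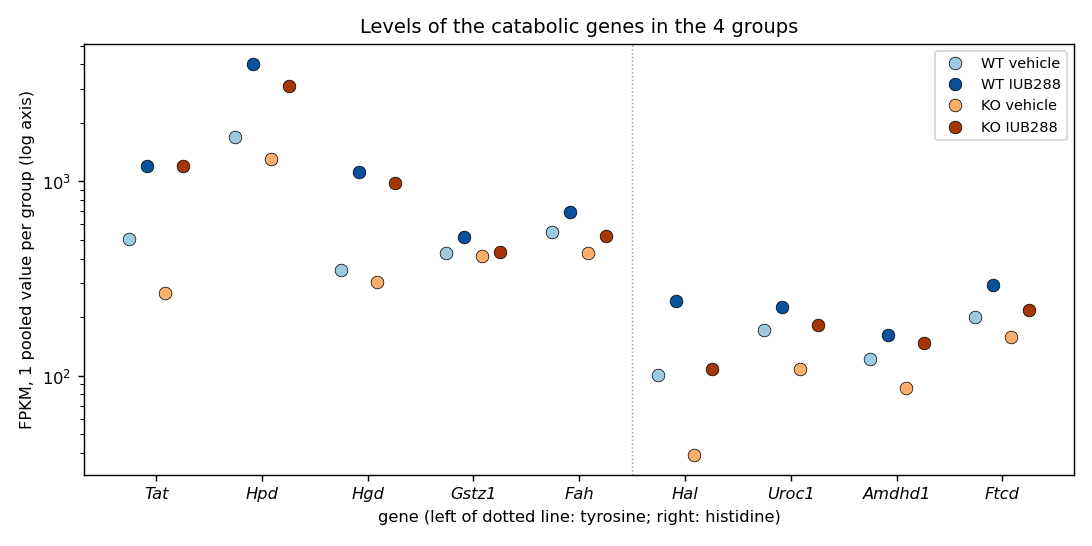
FPKM of each gene (log axis) in the 4 groups, 1 pooled value per group of 2 mice with no error available, on the scale of the table of the KO effect under IUB288. In each of the 9 genes the WT IUB288 point is the highest and the KO vehicle point the lowest, and Tat, Hpd, Hgd and Hal show the widest gap between vehicle and IUB288.

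In all 9 genes WT IUB288 was the highest group and KO vehicle the lowest, an order found in 17.1% of loci tested in all tables and in 37.4% of those reaching 100 FPKM. KO IUB288 was above WT vehicle in 8 of them. Fah was the exception, at 551 FPKM in WT vehicle and 526 in KO IUB288. WT IUB288 was tested directly against KO IUB288, and none of the 9 was called. For Tat these groups stood at 1200 and 1198 FPKM. WT vehicle was tested neither against KO IUB288 nor against KO vehicle.

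The first comparison asked how IUB288 changed these genes in WT liver. In the authors' deposited table Tat went from 544 to 1291 FPKM, a log2 fold change of 1.25 ± 0.55 (q = 0.0332). Hpd, whose enzyme is the target of the drug nitisinone, went from 1823 to 4351 FPKM in the authors' deposited table, 1.26 ± 0.59 (q = 0.0473). Hgd, the gene defective in human alkaptonuria, went from 374 to 1200 FPKM in the authors' deposited table, 1.68 ± 0.47 (q = 0.00163). These 3 enzymes act one after the other, and each gene was between 2.37 and 3.21 times as high under IUB288 as under vehicle. Of the last enzymes, Gstz1 went from 460 to 553 FPKM in the authors' deposited table, 0.27 ± 0.46 (q = 0.765). Fah, defective in human hereditary tyrosinaemia, went from 594 to 752 FPKM in the authors' deposited table, 0.34 ± 0.52 (q = 0.722). Neither was called, and their 95% intervals, -0.64 to 1.17 for Gstz1 and -0.68 to 1.36 for Fah, include both 0 and 1. With errors implied by the deposited p the intervals were -0.36 to 0.89 for Gstz1, which leaves out 1, and -0.37 to 1.06 for Fah.

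In the histidine pathway Hal went from 108 to 259 FPKM in WT, 1.27 ± 0.46 (q = 0.00163) in the authors' deposited table. The genes that follow it moved less and were not called. In the authors' deposited table Uroc1 went from 184 to 242 FPKM (0.39 ± 0.44, q = 0.567), Amdhd1 from 132 to 174 (0.40 ± 0.46, q = 0.585) and Ftcd from 216 to 313 (0.54 ± 0.45, q = 0.387). The 4 genes called of 9 compare with 3.96% of all tested loci called higher in WT, and with 18.4% of the loci of at least 100 FPKM in either group, among which all 9 fall. None of the 9 was called lower (3.4% of all tested loci, and 4.79% of those of at least 100 FPKM). The median log2 fold change of the 9 was 0.54, against 0.03 over all tested loci and 0.43 over the loci of at least 100 FPKM.

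The second comparison asked the same in KO liver. Tat went from 279 to 1263 FPKM in the authors' deposited table, 2.18 ± 0.50 (q = 0.00189), the largest value of the 9 in either genotype. Hpd went from 1365 to 3253 FPKM (1.25 ± 0.54, q = 0.0267) and Hgd from 318 to 1030 (1.70 ± 0.44, q = 0.00189) in the authors' deposited table. Gstz1 (433 to 453 FPKM, 0.07 ± 0.41, q = 0.962) and Fah (450 to 554 FPKM, 0.30 ± 0.45, q = 0.783) were again not called in the authors' deposited table. Hal went from 40.9 to 113 FPKM in the authors' deposited table, 1.47 ± 0.44 (q = 0.00189). Uroc1 (114 to 191 FPKM, 0.75 ± 0.40, q = 0.105) and Amdhd1 (91.2 to 156 FPKM, 0.77 ± 0.44, q = 0.15) were the pair of uncalled members with an unadjusted p under 0.05 in the authors' deposited table. Ftcd stood at 166 and 228 FPKM in the authors' deposited table, 0.46 ± 0.41 (q = 0.505). In KO 3.13% of all tested loci and 9.76% of those of at least 100 FPKM were called higher, and 2.37% and 5.68% were called lower, none of them among the 9. The median of the 9 was 0.77, against 0.00 over all tested loci and 0.25 over the loci of at least 100 FPKM. Loci called higher in both treatment tables made up 2.22% of those tested in both, and 8.27% of those of at least 100 FPKM in both.

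**Figure D2:**
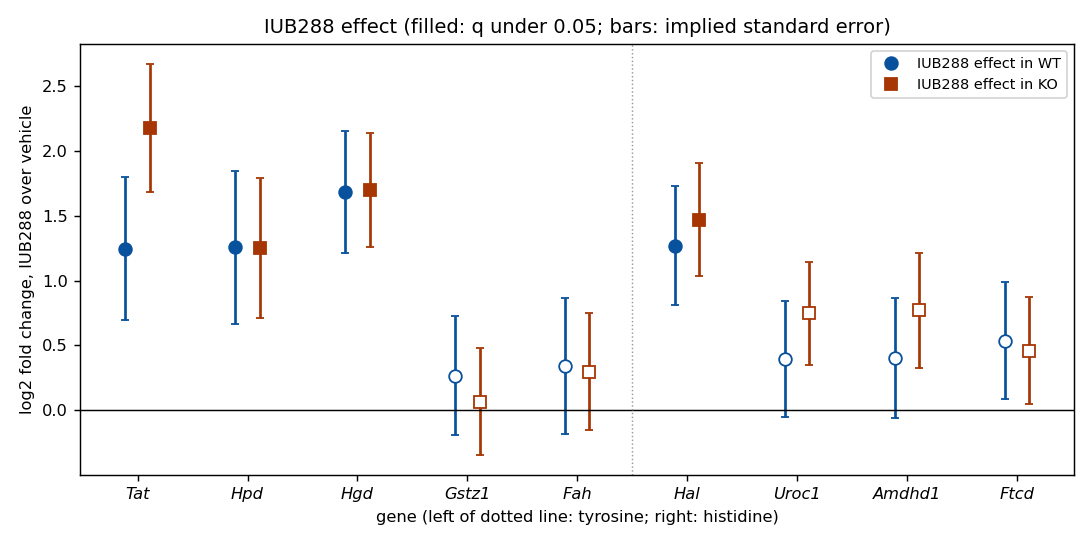
Log2 fold change of IUB288 over vehicle for each gene in WT (circles) and KO (squares), from the authors' deposited tables, with implied standard errors as bars and filled symbols at q under 0.05. Tat, Hpd, Hgd and Hal are filled in both genotypes, with values from 1.25 to 2.18, while the other 5 genes lie between 0.07 and 0.77 and are open.

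The calls depend on the p-values used and on the scaling. With normal p-values from the test statistic, Benjamini-Hochberg adjusted over all tested loci, Hgd alone was called in WT, where 1.44% of loci were called higher and 1.14% lower. In KO the same p-values called Tat, Hgd and Hal, with 1.26% of loci higher and 0.941% lower. At q under 0.01 Hgd and Hal were called in WT (2.28% of loci higher, 1.96% lower) and Tat, Hgd and Hal in KO (2.05% and 1.48%). Over loci of at least 10 FPKM in both groups the median log2 fold change was 0.21 in WT and 0.08 in KO. Relative to it Tat, Hpd, Hgd and Hal stood at 1.03, 1.04, 1.47 and 1.06 in WT. With these centred values and normal p-values 0 of the 9 were called in WT (0.956% of loci higher, 1.64% lower), while the deposited p was under 0.05 for 4, and Tat and Hgd were called in KO (1.1% and 1.08%).

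Ratios within a group do not depend on how the tables are scaled. Hgd stood at 0.63 times the FPKM of Fah in WT vehicle and at 1.6 times in WT IUB288, and at 0.705 and 1.86 times in KO. The ratio of Tat to Fah went from 0.917 to 1.72 in WT and from 0.619 to 2.28 in KO, and that of Hpd to Fah from 3.07 to 5.79 and from 3.03 to 5.87. The ratio of Gstz1 to Fah stayed between 0.736 and 0.962 in the 4 groups. In the histidine pathway the ratio of Hal to its neighbour Amdhd1 went from 0.818 to 1.49 in WT and from 0.449 to 0.728 in KO. The balance between early and late steps thus differed between vehicle and IUB288 in the pooled values, a difference between genes that was not tested.

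**Figure D3:**
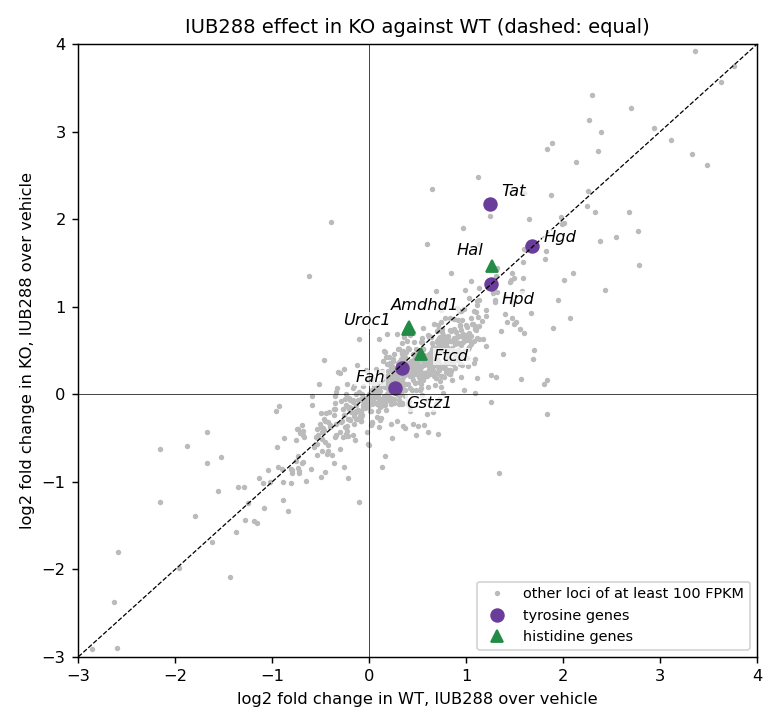
Log2 fold change of IUB288 over vehicle in WT (horizontal axis) and in KO (vertical axis) for the 9 genes and for 818 other loci of at least 100 FPKM in both treatment tables (grey), of which 7 lie outside the axes. Hpd and Hgd lie on the line of equal effects, and of the 9 Tat lies furthest above it, at 1.25 in WT and 2.18 in KO.

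Whether the response to IUB288 differed between KO and WT was tested from the fold changes of both treatment tables, which share no mouse. None of the 9 was called, and none had an unadjusted p under 0.05, nor with errors implied by the deposited p-values. Over all loci tested in both, 0.0592% were called with KO above WT and 0.0444% with KO below. Tat had a difference of 0.93 ± 0.74 (KO minus WT, 95% interval -0.52 to 2.38). Hgd had 0.02 ± 0.64 (-1.25 to 1.28) and Hpd -0.0019 ± 0.80 (-1.56 to 1.56). Hal had 0.20 ± 0.63 (-1.04 to 1.44). Each of the 9 intervals included 0 and reached past 1 or -1 on the log2 scale. With errors implied by the deposited p all 9 still included 0, and 7 reached past 1 or -1, those of Fah and Ftcd not.

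The third comparison set KO against WT under IUB288. None of the 9 was called, against 0.323% of tested loci called higher and 0.216% called lower (0.588% and 1.06% of those of at least 100 FPKM), and 1 of them had an unadjusted p under 0.05. That gene was Hal, with 241 FPKM in WT and 107 in KO in the authors' deposited table, a log2 fold change of -1.17 ± 0.48 (p = 5e-04, q = 0.0765). Its 95% interval ran from -2.10 to -0.23, and from -1.82 to -0.51 with the error implied by that p. Adjusted over loci of at least 1 FPKM it had 0.0682, and with normal p-values 1.00, where 0.115% of loci were called higher and 0.0862% lower (0.122% and 0.0718% with centred values). Tat stood at 1200 and 1198 FPKM in the authors' deposited table, -0.0017 ± 0.57, with a 95% interval from -1.11 to 1.11. Hpd (4042 and 3090 FPKM, -0.39 ± 0.61) and Hgd (1115 and 978, -0.19 ± 0.51) were not called in the authors' deposited table. All 9 values were below 0, from -0.0017 for Tat to -1.17 for Hal with a median of -0.31, as were those of 52.2% of tested loci and 77.2% of the loci of at least 100 FPKM. With fold changes centred on loci of at least 10 FPKM the value of Tat was 0.09, above 0.

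No table compared the vehicle groups. Chained through the 3 tables, the KO effect under vehicle was -0.93 for Tat and -1.36 for Hal on the log2 scale, that is 1.91-fold and 2.57-fold lower in KO. Hal was thus the gene with the lowest KO value of the 9 both under vehicle and under IUB288. Tat was lower in KO under vehicle and at nearly the same level under IUB288. Uroc1 (-0.67), Amdhd1 (-0.50), Hpd (-0.39), Fah (-0.37) and Ftcd (-0.35) followed, and Hgd (-0.21) and Gstz1 (-0.05) were the nearest to 0. All 9 were below 0, as were 45.7% of loci tested in all 3 tables and 53.6% of those of at least 100 FPKM. These chained values have no error and no test, since their parts share mice.

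**Figure D4:**
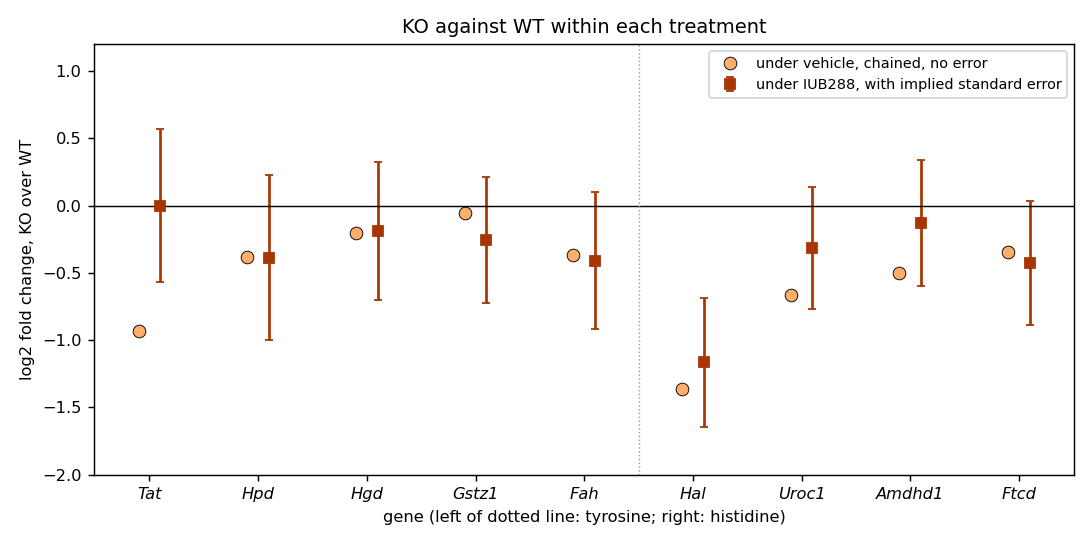
Log2 fold change of KO over WT for each gene under vehicle (circles, chained through the 3 tables, without error) and under IUB288 (squares, from the authors' deposited table, with implied standard errors). Hal is the lowest under both treatments, at -1.36 and -1.17, and Tat is at -0.93 under vehicle and -0.0017 under IUB288.

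Markers of macrophages were lower in KO under IUB288, the comparison in which Hal was lowest of the members but not called. Of 9 Kupffer cell and macrophage markers 4 fell in KO against WT under IUB288 (Clec4f, Marco, C1qa and C1qb), beside 0.216% of all tested loci. All 9 had an unadjusted p under 0.05. The summed level of the 9 was 182 FPKM in WT and 70.3 in KO. Their part in the value of Hal was not tested. Of 10 stellate cell and fibroblast markers 6 fell with IUB288 in WT, where their sum went from 153 to 83.3 FPKM, and 1 fell in KO, where it went from 107 to 92.1. Of 9 sinusoidal endothelial markers 1 fell in WT (98.7 to 83.6 FPKM in sum) and none in KO (80.6 to 67.5), where 2 had an unadjusted p under 0.05. Over all tested loci 3.4% were called lower in WT and 2.37% in KO. The 1 endothelial marker in WT and the 1 stellate marker in KO are near those shares and are not a result about their lists. The collagen genes Col1a1, Col3a1 and Col1a2 had the largest falls of the stellate list in WT (-2.88, -2.47 and -2.07 in the authors' deposited table), and Col3a1 also fell in KO (-1.38). Lyve1 was the endothelial marker that fell (-2.47 ± 0.57, q = 0.00163 in the authors' deposited table). Marco rose with IUB288 in WT (1.42 ± 0.50, q = 0.00301 in the authors' deposited table). It was the 1 macrophage marker of 9 called there, near the 3.96% of all tested loci called higher, and not a result about the list. The sum of the 9 macrophage markers went from 135 to 197 FPKM with IUB288 in WT. In KO it went from 94.6 to 74.0 FPKM, and none was called. No marker of these 3 lists was at 0. Of 5 tested cholangiocyte markers in WT and 4 in KO none was called, with 1 and 0 at an unadjusted p under 0.05, and the summed level of the 7 listed lay between 14.7 and 26.1 FPKM in the treatment tables. Fewer cells of a type and less RNA per cell cannot be told apart in bulk liver, and the part of these cells in the members' rise was not tested. Hpd is also expressed in kidney, and of 6 kidney tubule markers only Lrp2 was above 0.01 FPKM in any column. Lrp2 rose from 0.0443 to 0.549 FPKM in WT and from 0.219 to 1.04 in KO in the authors' deposited tables, and Slc34a1 and Kap were at 0 throughout. Skeletal muscle markers were at or below 0.0506 FPKM throughout, with none tested.

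Upstream of the 9 genes, the hydroxylation of phenylalanine was represented by 9 genes, of which 3 rose and none fell in WT and 2 rose and none fell in KO. For this list and those that follow, the shares of all tested loci called higher and lower were 3.96% and 3.4% in WT and 3.13% and 2.37% in KO, and among loci of at least 100 FPKM 18.4% and 4.79% in WT and 9.76% and 5.68% in KO. Dnajc12, which encodes a chaperone of the aromatic amino acid hydroxylases, rose from 3.98 to 17.6 FPKM in WT (2.14 ± 0.48, q = 0.00163) and from 4.65 to 17.5 in KO (1.92 ± 0.46, q = 0.00189) in the authors' deposited tables. Qdpr, which regenerates the cofactor tetrahydrobiopterin, rose in WT (0.94 ± 0.42, q = 0.0261) and had 0.77 ± 0.40 (q = 0.0794) in KO in the authors' deposited tables. Genes that make the cofactor were not called in either genotype, among them Gch1 (-0.16 ± 0.39 in WT, q = 0.855), Pts (-0.44 ± 0.41, q = 0.459) and Spr (0.56 ± 0.39, q = 0.27) in the authors' deposited table.

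Genes for other fates of these amino acids and their products were called in both directions. Of 17 tested, 3 rose and 1 fell in WT, and 3 rose and 2 fell in KO. Over all loci 3.96% rose and 3.4% fell in WT, and 3.13% and 2.37% in KO. The 1 that fell in WT is near that share. The falls were of Hnmt and Cndp2, whose enzymes act on histamine and on dipeptides. The list also holds tRNA synthetase genes, none of them called. Got1, an aspartate aminotransferase, rose from 146 to 541 FPKM in WT and from 58.8 to 430 in KO in the authors' deposited tables, by 1.89 ± 0.45 (q = 0.00163) and 2.87 ± 0.41 (q = 0.00189). Ddc, aromatic amino acid decarboxylase, rose by 2.09 ± 0.49 in WT (q = 0.00163) and 1.56 ± 0.40 in KO (q = 0.00189) in the authors' deposited tables. Ccbl1, a transaminase of kynurenine and aromatic amino acids, rose by 0.93 ± 0.42 in WT (q = 0.0235) and by 0.95 ± 0.37 in KO (q = 0.00761) in the authors' deposited tables. Hnmt, histamine methyltransferase, fell by 1.25 ± 0.42 in WT (q = 0.00163) and by 0.92 ± 0.40 in KO (q = 0.0276) in the authors' deposited tables. Cndp2, a dipeptidase, fell in KO (-0.90 ± 0.38, q = 0.0185), beside -0.51 ± 0.41 (q = 0.364) in WT in the authors' deposited tables. Hdc, which makes histamine from histidine, stood at 2.37 and 5.83 FPKM in WT (1.30 ± 0.74, q = 0.125) in the authors' deposited table and was not called.

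The products of both pathways have their own users. Of 8 genes listed for the use of fumarate or acetoacetate 2 rose and 1 fell in each genotype. Fh1, fumarase, rose from 106 to 417 FPKM in WT (1.98 ± 0.41, q = 0.00163) and from 89.9 to 346 in KO (1.94 ± 0.38, q = 0.00189) in the authors' deposited tables. Mdh2, mitochondrial malate dehydrogenase, rose by 1.31 ± 0.41 in WT (q = 0.00163) and 1.16 ± 0.37 in KO (q = 0.00189) in the authors' deposited tables. Its enzyme acts on malate, the product of fumarase, and not on fumarate or acetoacetate. Aacs, which activates acetoacetate in the cytosol, fell by 2.11 ± 0.44 in WT (q = 0.00163) and by 1.72 ± 0.41 in KO (q = 0.00189) in the authors' deposited tables. Among the folate one-carbon genes, which receive the unit from Ftcd, 2 of 19 rose in WT and 2 of 18 in KO, and none fell. Of all tested loci 3.96% rose in WT and 3.13% in KO, and of those of at least 100 FPKM 18.4% and 9.76%, so these counts are near the background and are not a result about the list. Fpgs, which adds glutamate tails to folate, rose in both (1.30 ± 0.54, q = 0.0113, and 1.08 ± 0.46, q = 0.0122, in the authors' deposited tables). Mthfd1l, a mitochondrial folate enzyme, rose in KO from 0.0832 to 0.773 FPKM (3.22 ± 0.97, q = 0.00628) in the authors' deposited tables. Of 10 tested transporters of aromatic amino acids and histidine none was called in either genotype, with 3 in WT and 2 in KO at an unadjusted p under 0.05. The histidine and glutamine carrier Slc38a3 stood at 916 and 1132 FPKM in WT (0.31 ± 0.57, q = 0.792) in the authors' deposited table.

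Of 17 transcription factors, coregulators and receptors linked to hepatic amino acid catabolism, 1 rose and 3 fell in WT and 2 rose and 2 fell in KO, beside 3.96% and 3.4% of all tested loci in WT and 3.13% and 2.37% in KO. The 1 that rose in WT is near that share. Foxa3, a forkhead factor of hepatocytes, rose by 1.23 ± 0.41 in WT (q = 0.00163) and 0.84 ± 0.36 in KO (q = 0.0194) in the authors' deposited tables. Foxa1, its relative, fell by 1.05 ± 0.45 in WT (q = 0.0228) and by 1.47 ± 0.40 in KO (q = 0.00189) in the authors' deposited tables. Ppara, a receptor of the fasting response, fell by 1.19 ± 0.41 in WT (q = 0.00163) and by 0.83 ± 0.39 in KO (q = 0.0463) in the authors' deposited tables. Cebpb, a C/EBP factor, fell from 61.6 to 30.5 FPKM in WT (q = 0.00163) and stood at 32.0 and 32.8 in KO (q = 0.981) in the authors' deposited tables. Ppargc1a, a coactivator of gluconeogenesis, rose in KO (1.15 ± 0.41, q = 0.00879) and had 0.08 ± 0.43 in WT (q = 0.942) in the authors' deposited tables. Nr3c1, the glucocorticoid receptor gene, had -0.30 ± 0.40 in WT (q = 0.656) and -0.47 ± 0.35 in KO (q = 0.374) in the authors' deposited tables. Of 15 periportal hepatocyte genes, a zone in which histidine catabolism is known to be strong, 6 rose and 1 fell in WT and 9 rose and none fell in KO. Of 13 pericentral genes 1 rose and 5 fell in WT, and 1 rose and 6 fell in KO. Over all tested loci 3.96% rose and 3.4% fell in WT, and 3.13% and 2.37% in KO. The periportal genes with the largest rises in WT were Agxt (2.38 ± 0.47), Agxt2l1 (2.29 ± 0.44) and Sdsl (1.99 ± 0.44), and in KO Agxt2l1 (3.42 ± 0.44), Agxt (2.99 ± 0.42) and Gls2 (2.80 ± 0.48) in the authors' deposited tables. The pericentral genes with the largest falls in WT were Cyp2a5 (-2.63 ± 0.42), Cyp2e1 (-1.97 ± 0.61) and Rgn (-1.63 ± 0.45), and Oat was the pericentral gene that rose (1.62 ± 0.50) in the authors' deposited table. The part of zonation in the members' values was not tested.

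The genes whose pattern was nearest to each of the 4 called members were found by Euclidean distance over the 3 deposited log2 fold changes, among 3627 other loci of at least 10 FPKM in every group. For Tat they were Slc7a2 (distance 0.392), an arginine transporter gene, Ass1 (0.397), of the urea cycle, and Etnk2 (0.435). For Hpd they were Agt (0.106), which encodes angiotensinogen, Tmem120a (0.113) and Fam195a (0.13). Hgd was nearest to Aass (0.169), the first enzyme gene of lysine breakdown, Oat (0.253), ornithine aminotransferase, and Mat1a (0.261), which makes S-adenosylmethionine. Hal had no close neighbour, the nearest being Mpv17l2 (0.569), Igfbp1 (0.588) and Ifitm2 (0.605). Among the members themselves the nearest to Tat was Hgd, at rank 10 (0.674), and the nearest to Hal was Hpd, at rank 15 (0.807). For Hpd the nearest member was Hgd, at rank 130 (0.646), and for Hgd it was Hpd, at rank 37. Gstz1 ranked 1502 or further for each of the 4. The 3 fold changes share groups, so these distances only describe likeness.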

How the data were processed

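Mouse liver RNA was extracted with TRIzol reagent and libraries were built with an Illumina TruSeq kit, per the labels' protocols. The submitters' processing notes name Cuffdiff, Cufflinks 2.2.1, Bowtie2 2.2.3, TopHat2 2.0.12, Trim Galore 0.4.0 and bcl2fastq 1.8.4, with the builds mm10 and hg19. The authors deposited 3 full tables of pooled FPKM per group. The authors' log2 fold change, their test statistic (used as a score), and their p-value and q-value stand beside it in the deposited tables, with 5e-05 as the smallest p-value. Library depths are missing from the sources used here, so counting intervals were not computed. No per-sample column was left unmapped.

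Calls are status OK and q under 0.05. The standard error is the log2 fold change over the statistic, since no value per mouse was given. The KO minus WT difference used a normal test with both errors, Benjamini-Hochberg adjusted over 13521 loci, and the code was tested on simulated data. Levels of IUB288 groups were 1.08 (WT) and 1.05 (KO) times as high in the treatment tables as in the genotype table, so all levels were put on the scale of the latter. The 9 genes, the gene lists and the tests were chosen with earlier results of these data known. The rule for names took all 9 genes, up to 3 called genes per list and treatment table, and the 3 nearest patterns of members called in both treatment tables. Some genes that this rule takes are not reported here. Other genes named were chosen after their values were seen. Promoter sequences are from RefSeq (GRCm38.p6). Python 3.11.15, numpy 2.4.6, pandas 2.3.3, scipy 1.17.1 and matplotlib 3.10.9 were used. Alternatives covered thresholds, p-values, centring, a pseudocount of 1 and summed rows.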

Additional observations from a re-analysis of the deposited data

How the results depend on the processing

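The count of members called higher with IUB288 in WT was 4, and it was 2 at q under 0.01, 1 with normal p-values from the statistic and 0 with centred fold changes. In KO it was 4 and became 2 with centred fold changes. The centred version also uses normal p-values, and these alone took the WT count to 1. Other alternatives left these counts within 1.5 times. They were a minimum of 1 FPKM, a 2-fold limit, a pseudocount of 1 and summed rows. The pseudocount and the summed rows kept the deposited calls, and each gene had exactly 1 row. The counts under those settings therefore could not test the calls. No member was called lower, or called for the KO effect under IUB288 or for the KO minus WT difference, under any alternative run for that result. Directions changed with centring alone: Gstz1 in KO became -0.016, Tat in the KO effect under IUB288 became 0.0942, and the KO minus WT differences of Hpd, Fah and Ftcd became 0.129, 0.0882 and 0.0544, none of them called. A direct ratio of vehicle levels across tables also put 9 members lower in KO. It is the same quantity as the chained value apart from the scaling of the tables, so it could not test that direction. No paired analysis was possible because the labels give no shared replicate numbers and the tables hold no value per mouse, and for the same reason leaving out single mice was not run. Intervals from the deposited p-values were added after the data were seen. A gene high in 1 mouse alone could not be seen here.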
